A study of Rattus norvegicus with 42 samples.

Results

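Interferon-stimulated genes, the transcripts that cells raise when interferon binds its receptors, were followed across 6 groups of rat retinas. The set held 39 genes, listed by name with earlier results of these data known, and all 39 were found among the 32623 genes of the count table, 38 under an identical name and Xaf1 as XAF1. All 39 also passed the filter on low counts that left 18094 genes for testing.

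Type I interferons signal through Ifnar1 and Ifnar2 to the kinases Jak1 and Tyk2, which activate STAT proteins. Among these Stat2 works with Irf9 in a complex that binds the interferon-stimulated response element in the promoters of antiviral genes, while interferon gamma has its own receptor and acts at the gamma-activated site. Many of the induced proteins sense or degrade viral RNA, and others feed back on the pathway. In the retina, microglia, Müller glia and neurons can each raise such genes after infection or injury.

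Adult rats were left untreated (control, 5 libraries), spent 24 h under 15000 lux (light damage, 7), or received into the vitreous either vehicle without light (vehicle, 5) or with it (vehicle plus light, 5), or 1 mM cerium oxide nanoparticles without light (nanoceria, 4) or with it (nanoceria plus light, 5). Strain, sex and the interval between injection and light were not given in the sources used here, and 11 of 42 labelled samples were not analysed here. The labels call the libraries biological replicates of whole retina, in which fewer cells of a type and less RNA per cell cannot be told apart.

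Library totals ran from 25158407 counts in light damage replicate 1, followed by 73369026, to 182162368, with a median of 106887932. Light damage replicate 1 stood apart from all other libraries (chi-square per degree of freedom 1189 to 2415, against at most 1148 between any others) and had the lowest TMM factor, 0.812. Without it 23, 24 and 17 of the 39 genes were called in the 3 light responses described here, in place of 19, 24 and 18. Vehicle replicates 4 and 7, and likewise light damage replicates 4 and 7, were near-identical (chi-square per degree of freedom 4.64 and 11.4). The next nearest pair of libraries had 76.4. They differed by more than sampling noise and each library was kept, but this does not show that they came from separate animals. If they did not, the main fit counts some animals more than once, and the calls with these pairs summed are given in the closing section. By their Y-linked counts the groups mixed both sexes in different proportions, from 1 of 5 libraries with high counts (vehicle) to 4 of 5 (control), and a term for sex left the counts of calls given here as they were. Rod markers, 9 genes of the rod cell, marked the tissue as retina and summed to 30300 to 57500 CPM (counts scaled to a common library total, with TMM factors) in the control libraries.

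Promoters of 300 bases, from 250 before to 50 after the gene start, were matched by symbol in RefSeq (GRCr8) for 30 of the 39 genes, leaving Oas2, Mx2, Ddx58, Dhx58, Zbp1, Isg15, Usp18, Ifit2 and Rtp4. The core of the response element, GAAA, any 2 bases and GAAA again on either strand, occurred in 18 of the 30, against 3.92% of all 33469 promoters of that length. The core of the gamma-activated site, TTCNNNGAA, which reads alike on both strands, occurred in 8 of the 30 (26.7%), against 8.87%. A gamma-activated core overlapped a response element core in 1 member, Bst2. Such a match describes letters and does not show that a factor binds. The response element core occurred in 7 of 13 genes called in all 3 light responses and in 5 of 10 called in none. The 5 promoters shown here were chosen because these genes differ in whether they were called with light, and capitals mark the response element core. Differences in response between these genes were not tested. Oas1b (chr12:41395803-41396102, minus strand) and Oas1a (chr12:41330216-41330515, plus strand) are close relatives and carry the same pair of overlapping response element cores. Rsad2 (chr6:48788071-48788370, minus strand) had the largest fold change of the 39. Irf7 (chr1:205799974-205800273, minus strand) holds a response element core and was not called in any comparison. Irf9 (chr15:33065586-33065885, plus strand) had the smallest adjusted p and holds no response element core in this window. A gamma-activated core, not marked here, occurs in Irf9, Oas1a and Oas1b and not in Rsad2 or Irf7.
Oas1b: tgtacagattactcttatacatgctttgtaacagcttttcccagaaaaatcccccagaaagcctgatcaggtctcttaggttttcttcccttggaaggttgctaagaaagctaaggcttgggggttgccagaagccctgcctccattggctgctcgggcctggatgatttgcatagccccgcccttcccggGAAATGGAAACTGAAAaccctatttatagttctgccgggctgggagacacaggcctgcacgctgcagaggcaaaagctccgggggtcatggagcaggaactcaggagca
Oas1a: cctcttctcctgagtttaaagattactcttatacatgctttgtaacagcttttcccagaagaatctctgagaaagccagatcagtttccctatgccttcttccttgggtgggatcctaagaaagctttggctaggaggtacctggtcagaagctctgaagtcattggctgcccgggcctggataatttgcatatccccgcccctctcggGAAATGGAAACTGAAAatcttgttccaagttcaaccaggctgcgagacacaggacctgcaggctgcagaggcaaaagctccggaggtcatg
Rsad2: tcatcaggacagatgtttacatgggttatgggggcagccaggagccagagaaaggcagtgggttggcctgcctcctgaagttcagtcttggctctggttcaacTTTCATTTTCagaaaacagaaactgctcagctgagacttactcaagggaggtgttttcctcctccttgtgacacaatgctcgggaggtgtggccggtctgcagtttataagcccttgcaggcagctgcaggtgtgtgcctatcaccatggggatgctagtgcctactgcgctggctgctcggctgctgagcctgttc
Irf7: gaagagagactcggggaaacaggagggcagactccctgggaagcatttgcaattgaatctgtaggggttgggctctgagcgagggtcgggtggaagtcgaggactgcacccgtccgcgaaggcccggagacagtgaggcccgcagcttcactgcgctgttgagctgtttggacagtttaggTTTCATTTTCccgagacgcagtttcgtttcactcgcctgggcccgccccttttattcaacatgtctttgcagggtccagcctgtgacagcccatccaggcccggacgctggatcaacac
Irf9: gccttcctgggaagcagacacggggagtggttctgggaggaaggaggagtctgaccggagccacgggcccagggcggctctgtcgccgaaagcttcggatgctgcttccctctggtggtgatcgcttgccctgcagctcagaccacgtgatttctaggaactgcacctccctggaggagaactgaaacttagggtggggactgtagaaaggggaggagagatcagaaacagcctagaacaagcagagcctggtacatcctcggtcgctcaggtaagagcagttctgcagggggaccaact
Counted from the gene start, the response element cores begin at -59 and -53 in Oas1b and at -41 and -35 in Oas1a. Those of Rsad2 and Irf7 begin at -147 and -69 and read on the strand opposite to the gene.

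Light raised about as many of these genes as it left uncalled, and it lowered none by the test used. After light alone 19 of the 39 rose and 0 fell (edgeR quasi-likelihood test, adjusted p under 0.05 over 18094 genes), where 11.9% of all genes rose and 10.6% fell, 22.5% in either direction. With light after vehicle 24 rose and 0 fell, against 9.67% of all genes rising and 7.17% falling, 16.8% in either direction. With light after nanoceria 18 rose and 0 fell, against 8.15% rising and 5.78% falling, 13.9% in either direction. The median log2 fold change of the 39 was 0.71, 0.88 and 0.70 in the same order, beside -0.01, 0.02 and 0.04 over all genes tested, and the fitted change was above 0 for 34, 39 and 36 of the 39.

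The 3 responses share no library, and 17 genes rose in every one of them, where 5.08% of all genes did and 3.7% fell in every one: Irf9, Stat2, Oas1b, Mx2, Ifih1, Ddx58, Dhx58, Eif2ak2, Usp18, Herc6, Trim25, Parp9, Dtx3l, Ifi44, Rsad2, Cmpk2 and XAF1. Gbp5 and Lgals3bp rose in 2 responses, and Oasl, Gbp2, Isg15, Parp14, Ifit3 and Bst2 in 1. The other 14, Irf1, Irf7, Irf8, Oas1a, Oas2, Oas3, Mx1, Tlr3, Zbp1, Ifit2, Ifi35, Isg20, Rtp4 and Ifitm3, were called in none. Every exposed library lay above every unexposed one for 12, 21 and 16 genes (background 6.47%, 7.65% and 7.11% of all genes), and 10 of these, Irf9, Stat2, Oas1b, Mx2, Ifih1, Dhx58, Usp18, Herc6, Ifi44 and Rsad2, did so in each response. The share of all genes that did so in each response was not computed.

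**Figure D1:**
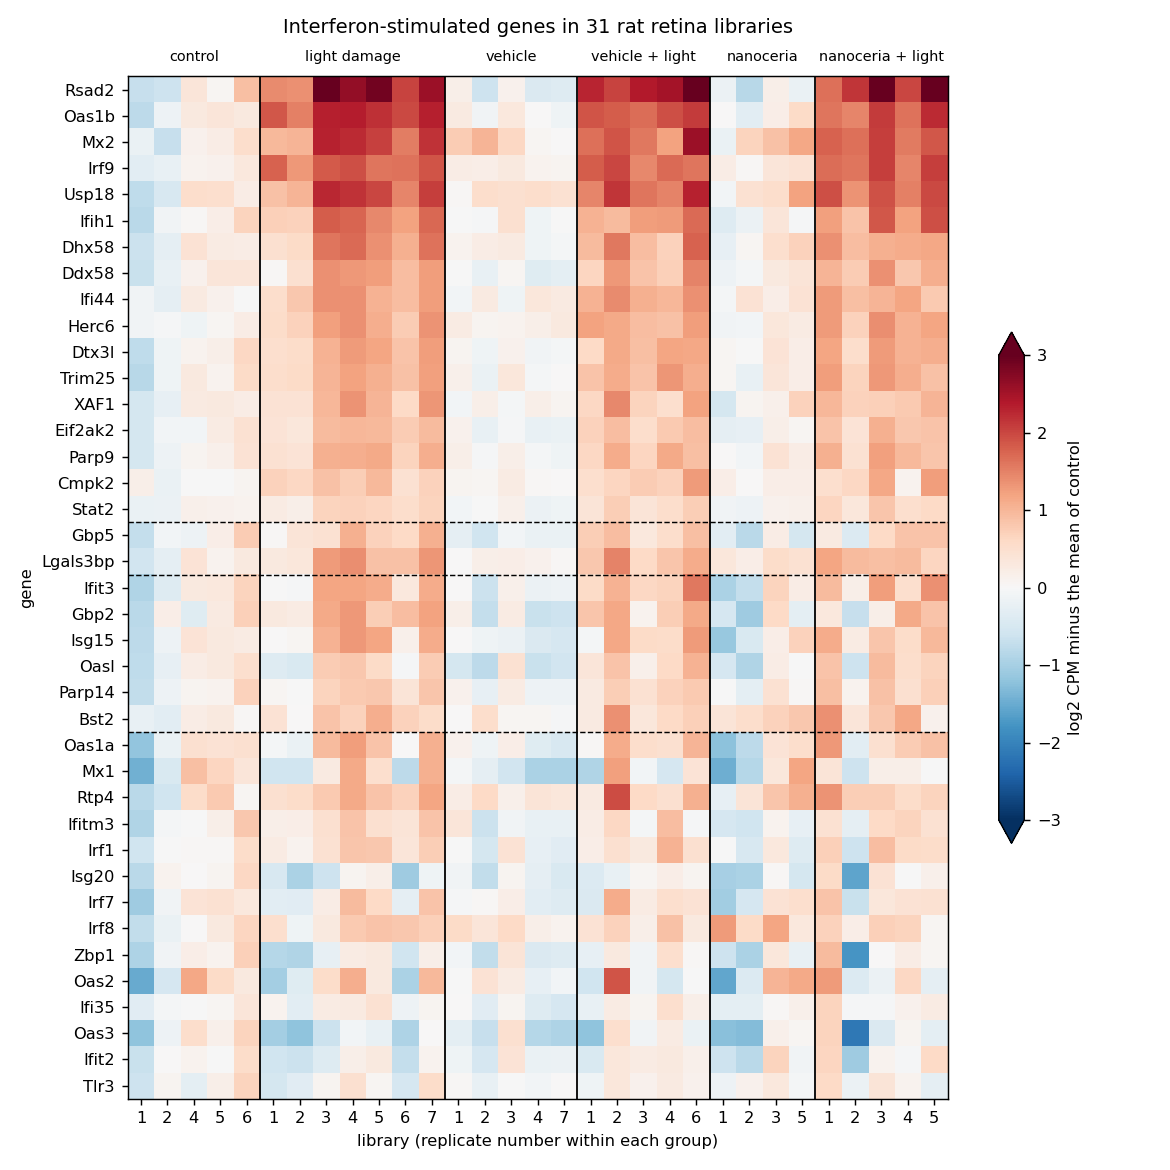
Level of the 39 genes (rows) in 31 libraries (columns, by group and replicate number), as log2 CPM minus the mean of the control group, on a colour scale that ends at -3 and 3. Dashed lines part genes called in 3, 2, 1 and 0 of the light responses, and the 3 exposed groups are red for most genes above the lowest dashed line.

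Among the 5 transcription factors, Irf9 and Stat2 rose in each response while Irf1, Irf7 and Irf8 were not called. Irf9, the DNA-binding subunit of the complex that reads the response element, stood at 14.6, 15.7, 19.5, 20.2 and 22.6 CPM in control and at 44.9 to 70.0 CPM, with a median of 61.9, in light damage. Vehicle libraries held 19.5, 19.6, 21.1, 21.3 and 22.4 CPM of Irf9 and vehicle plus light libraries 49.5, 55.8, 59.7, 64.1 and 73.4 CPM. Nanoceria libraries held 18.7, 21.3, 23.7 and 24.6 CPM and nanoceria plus light libraries 50.8, 55.8, 58.2, 76.5 and 77.2 CPM. The lowest exposed library thus lay above the highest unexposed one whatever the injection. Fitted log2 fold changes of Irf9 were 1.70 ± 0.13 (SE), 1.54 ± 0.14 and 1.53 ± 0.15, with edgeR adjusted p of 2.33e-10, 4.35e-09 and 3.59e-08.

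Stat2, its activated partner, changed less and with the smallest spread of the 39. It lay at 54.7, 55.3, 66.9, 68.1 and 69.4 CPM in control and between 70.4 and 101 CPM, with a median of 98.1, in light damage. The groups did not overlap, and the log2 fold changes were 0.52 ± 0.10, 0.60 ± 0.11 and 0.58 ± 0.12 (edgeR adjusted p from 0.000251 to 0.00101). Irf7, which amplifies interferon production in many cell types, lay at 36.1, 70.2, 94.6, 101 and 103 CPM in control and at 59.6 to 145 CPM, with a median of 89.1, in light damage. After injection it lay at 57.8, 60.5, 74.3, 77.2 and 86.4 CPM with vehicle and at 55.8, 90.2, 102, 108 and 165 CPM with vehicle plus light. The groups overlapped in both comparisons, and the log2 fold changes of Irf7 were 0.24 ± 0.31, 0.55 ± 0.33 and 0.37 ± 0.35 (edgeR adjusted p from 0.301 to 0.658). Irf1, a factor shared by both kinds of interferon, had positive fold changes of 0.49 to 0.64 that did not pass (edgeR adjusted p from 0.0672 to 0.122).

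Of the 5 oligoadenylate synthetases, which turn double-stranded RNA into a signal for RNA decay, Oas1b alone rose in every response, Oasl rose in 1, and Oas1a, Oas2 and Oas3 in none. Oas1b stood at 5.12, 7.92, 10.7, 10.7 and 11.3 CPM in control and at 25.2 to 44.9 CPM, with a median of 39.9, in light damage. With vehicle it was 7.99, 8.17, 8.87, 10.5 and 11 CPM, and 28.3, 30.8, 32.5, 33.8 and 38 CPM once light followed. With nanoceria it was 7.05, 8.81, 10.1 and 13.0 CPM, and 24.4, 26.8, 27.0, 37.8 and 41.7 CPM once light followed. No exposed library overlapped an unexposed one, and the log2 fold changes were 2.05 ± 0.19, 1.81 ± 0.20 and 1.69 ± 0.22 (edgeR adjusted p of 9.07e-09, 1.95e-07 and 3.44e-06).

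Its relative Oas1a overlapped between groups, at 5.87, 11.5, 18.1, 18.5 and 18.5 CPM in control and 11.5 to 31.7 CPM, with a median of 24.2, in light damage. The log2 fold changes of Oas1a were 0.54 ± 0.33, 0.79 ± 0.35 and 0.79 ± 0.38 (edgeR adjusted p from 0.136 to 0.267), and the difference between the responses of Oas1a and Oas1b was not tested. Reads from these similar genes can be split between them, as can those of Mx1 and Mx2, of the Ifit genes and of the Gbp genes, so their separate values are uncertain. Oasl, an enzyme-like protein that boosts RNA sensing in man, rose after vehicle, from 19.3, 20.9, 22.3, 22.9 and 45.5 CPM to 36.7, 42.5, 50.7, 60.03 and 68.4 CPM (0.98 ± 0.31, edgeR adjusted p 0.0279), with the highest vehicle library inside the exposed range. That call was lost without vehicle replicate 1, 2, 4 or 7 or vehicle plus light replicate 2 or 6, with an edgeR adjusted p of up to 0.0768, and with the near-identical pairs summed (0.0721). Oas2 and Oas3 had log2 fold changes between -0.64 and 0.40 and the widest spread between libraries of the family.

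**Figure D2:**
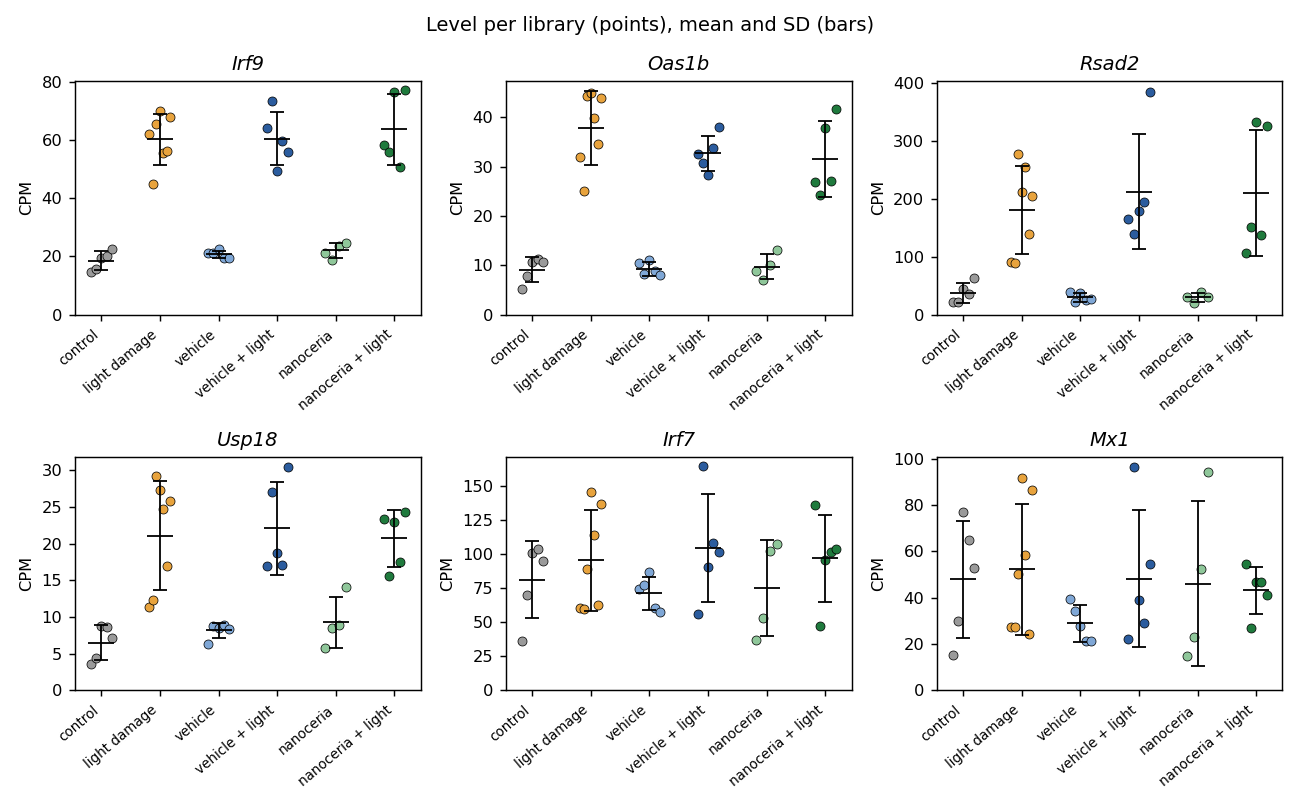
CPM of 6 genes in each library (points) with the mean and SD of each group (bars). Irf9, Oas1b, Rsad2 and Usp18 do not overlap between exposed and unexposed libraries within each light response, and Irf7 and Mx1 overlap in each light response.

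The Mx proteins are GTPases that block virus particles, and the guanylate-binding proteins act on infected compartments. Mx2 was at 13.3, 18.6, 23.3, 24.8 and 30.9 CPM in control and at 41.9 to 107 CPM, with a median of 88.4, in light damage. After vehicle it went from 21.5, 22.2, 33, 36.2 and 43 CPM to 49.6, 63.9, 66.7, 78.7 and 127 CPM, and after nanoceria from 18.5, 34.1, 39 and 48 CPM to 62.4, 66.6, 73.3, 78.1 and 89.3 CPM. Within each response the exposed libraries lay above the unexposed ones, with log2 fold changes of 1.80 ± 0.28, 1.31 ± 0.29 and 1.08 ± 0.31 (edgeR adjusted p of 2.71e-05, 0.00199 and 0.0185). Without nanoceria replicate 1 or 2 the last of these calls was lost, with an adjusted p of up to 0.0831. Mx1, in contrast, ranged from 15.2 to 77.1 CPM within control and from 24.1 to 91.6 CPM within light damage, and its changes of 0.12 ± 0.44, 0.74 ± 0.47 and -0.09 ± 0.50 were not called. Gbp5 rose with light after vehicle (0.95 ± 0.25, edgeR adjusted p 0.00686) and after nanoceria (0.80 ± 0.26, edgeR adjusted p 0.0391), the latter call being lost without nanoceria replicate 1, 2 or 5 or nanoceria plus light replicate 3, 4 or 5 (up to 0.152) and with the replicate number as a block. Gbp2 rose after vehicle (1.09 ± 0.33, edgeR adjusted p 0.0222), and that call was lost without vehicle replicate 2, 4 or 7 or vehicle plus light replicate 2 (up to 0.0622) and with the near-identical pairs summed (0.0638).

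Of 6 nucleic acid sensors, 4 rose in each response, namely Ifih1, Ddx58, Dhx58 and Eif2ak2. Ifih1 (MDA5), which reads long double-stranded RNA, lay at 8.47, 13.7, 15.3, 17.1 and 23.6 CPM in control and at 23.9 to 52 CPM, with a median of 40.3, in light damage. After vehicle it was 13.7, 14.4, 14.8, 14.8 and 20.7 CPM without light and 28.9, 30.7, 35.3, 36 and 47.9 CPM with it. After nanoceria it was 11.3, 13.1, 14.5 and 19.1 CPM without light and 26.9, 34.4, 35, 54.2 and 56.8 CPM with it. The groups did not overlap, though the gap to control was narrow, and the log2 fold changes were 1.33 ± 0.24, 1.19 ± 0.25 and 1.51 ± 0.27 (edgeR adjusted p from 0.00014 to 0.00112). Ddx58 (RIG-I), which reads short triphosphate RNA, rose by 0.97 ± 0.21, 1.20 ± 0.22 and 0.89 ± 0.24, and Dhx58 (LGP2), a modulator of both, by 1.23 ± 0.23, 1.15 ± 0.24 and 0.84 ± 0.26, with edgeR adjusted p from 0.000215 to 0.0265 over these 6 values. For Dhx58 after nanoceria the call was lost without nanoceria replicate 1 or 2 or nanoceria plus light replicate 1 (adjusted p up to 0.108).

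Eif2ak2 (PKR), the kinase that halts translation when it meets double-stranded RNA, was at 34.6, 46.8, 47.1, 58.9 and 68.9 CPM in control and at 62.9 to 99.7 CPM, with a median of 96.7, in light damage, so that the highest control lay above the lowest exposed library. With either injection the exposed libraries of Eif2ak2 lay above the unexposed ones, and its log2 fold changes were 0.76 ± 0.14, 0.88 ± 0.15 and 0.87 ± 0.17 (edgeR adjusted p from 0.00015 to 0.000571). The endosomal RNA receptor Tlr3 and the sensor of Z-form nucleic acids Zbp1 were not called, with log2 fold changes between -0.03 and 0.21 and between -0.28 and 0.40.

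Of the 4 genes of the ISG15 system 3 rose in every response. Usp18, which strips the ubiquitin-like Isg15 from proteins and also blocks the type I receptor, was at 3.58, 4.37, 7.20, 8.62 and 8.80 CPM in control and at 11.4 to 29.2 CPM, with a median of 24.8, in light damage. With vehicle it was 6.32, 8.40, 8.55, 8.79 and 8.87 CPM and with vehicle plus light 16.9, 17.1, 18.7, 27.1 and 30.5 CPM. Nanoceria libraries held 5.76, 8.47, 8.86 and 14 CPM and nanoceria plus light libraries 15.5, 17.5, 22.9, 23.3 and 24.3 CPM. The groups did not overlap within any response, and Usp18 rose by 1.70 ± 0.27, 1.43 ± 0.28 and 1.16 ± 0.30 (edgeR adjusted p of 2.72e-05, 0.000474 and 0.00842). Herc6, the main ISG15 ligase in the mouse, went from 25.6, 26.0, 27.3, 29.5 and 32.7 CPM in control to 41.1 to 72.3 CPM, with a median of 59.6, in light damage, without overlap. Its changes of 1.03 ± 0.13, 0.91 ± 0.14 and 1.02 ± 0.15 were among the best resolved of the set (edgeR adjusted p from 1.91e-06 to 3.94e-05). Trim25, a ubiquitin ligase of the RIG-I pathway, rose by 0.88 ± 0.17, 1.00 ± 0.19 and 0.95 ± 0.20 (edgeR adjusted p from 0.000293 to 0.00147). Isg15 itself had similar fitted changes, 0.73 ± 0.29, 1.02 ± 0.31 and 0.80 ± 0.33, of which the one after vehicle passed (edgeR adjusted p 0.0217, lost without vehicle replicate 4 or 7 or vehicle plus light replicate 2 or 6, up to 0.0631, and with the near-identical pairs summed, 0.0554).

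Parp9 and Dtx3l form a complex that modifies proteins with ADP-ribose and ubiquitin, and Parp14 is a related transferase. Parp9 was at 16.1, 20.9, 24.5, 26.0 and 31.6 CPM in control and at 31.1 to 51.3 CPM, with a median of 48.5, in light damage. Dtx3l was at 11.8, 18.2, 21.6, 22.5 and 30.6 CPM in control and at 28.4 to 48.3 CPM, with a median of 41, in light damage. For both, the lowest exposed library lay just below the highest control, control replicate 6, and the injected groups did not overlap. Parp9 rose by 0.84 ± 0.16, 0.87 ± 0.17 and 0.78 ± 0.18 and Dtx3l by 0.92 ± 0.18, 1.02 ± 0.19 and 0.87 ± 0.20, with edgeR adjusted p from 0.000242 to 0.00382. In RefSeq Parp9, Dtx3l and Parp14 are direct neighbours on chromosome 11 and the first pair overlap, so without known strand counting some of their reads may not be separable. Parp14 rose after vehicle (0.63 ± 0.21, edgeR adjusted p 0.0347, lost without vehicle replicate 2, 4 or 7 or vehicle plus light replicate 2, 4 or 6, up to 0.0871, and with the near-identical pairs summed, 0.0794).

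The 12 remaining antiviral effectors divided into 4 that rose in every response, 3 that rose in some and 5 that were never called. Rsad2 (viperin), which makes a nucleotide that ends viral RNA chains, was at 21.3, 22.1, 35.7, 43.9 and 63.6 CPM in control and at 89.1 to 277 CPM, with a median of 204, in light damage. With vehicle it was 22.2, 25.4, 26.3, 37.3 and 38.7 CPM and with vehicle plus light 138, 166, 179, 195 and 385 CPM. Nanoceria libraries held 19.2, 29.9, 30.3 and 38.9 CPM and nanoceria plus light libraries 107, 137, 151, 325 and 332 CPM. No exposed library overlapped an unexposed one, and the log2 fold changes of 2.28 ± 0.37, 2.83 ± 0.39 and 2.83 ± 0.43 were the largest of the set in each response (edgeR adjusted p of 3.77e-05, 6.6e-06 and 2.93e-05). The exposed libraries themselves spread widely, from 89.1 to 385 CPM.

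Cmpk2, a mitochondrial nucleotide kinase whose gene neighbours Rsad2 on chromosome 6, changed less, by 0.72 ± 0.14, 0.71 ± 0.15 and 0.63 ± 0.16 (edgeR adjusted p from 0.00044 to 0.00902). Ifi44, an antiproliferative protein, lay at 8.86, 9.82, 10.6, 11.6 and 12.8 CPM in control and at 15.4 to 27.7 CPM, with a median of 22.1, in light damage. It did not overlap in any response and rose by 1.07 ± 0.14, 1.04 ± 0.15 and 0.78 ± 0.16 (edgeR adjusted p from 2.08e-06 to 0.000933). XAF1, which promotes cell death, rose by 0.89 ± 0.20, 0.88 ± 0.22 and 0.69 ± 0.23, the last near the threshold (edgeR adjusted p 0.0433) and lost without control replicate 6, light damage replicate 1, nanoceria replicate 1, 2 or 3 or nanoceria plus light replicate 1, 3, 4 or 5 (up to 0.175). Lgals3bp, a secreted galectin ligand, rose by 0.93 ± 0.18 after light alone and 0.89 ± 0.20 after vehicle. Ifit3, which helps Ifit proteins hold foreign RNA, rose after vehicle (1.10 ± 0.33, edgeR adjusted p 0.0204), and its changes of 0.68 ± 0.31 and 0.96 ± 0.35 elsewhere did not pass. Its call was lost without vehicle replicate 2 or vehicle plus light replicate 6 (up to 0.0683). Bst2 (tetherin), which holds budding virus on the cell, rose after light alone (0.63 ± 0.21, edgeR adjusted p 0.027, lost without control replicate 1 or 2 or light damage replicate 3 or 5, up to 0.0784). The uncalled Ifit2, Ifi35, Isg20, Rtp4 and Ifitm3 had log2 fold changes between -0.42 and 0.71.

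The spread between libraries of a group enters the test, so called genes have a lower spread by construction, and the values here describe it only. The SD of log2 CPM within groups, pooled over the 6 groups, had a median of 0.31 (from 0.18 to 0.61) for the 17 genes called in each response and of 0.50 (from 0.26 to 0.90) for the 14 called in none. For several uncalled genes the fitted change was close to that of called ones, such as Oas1a at 0.54 to 0.79 and Irf1 at 0.49 to 0.64, while Oas3, Ifit2, Zbp1 and Isg20 had values on both sides of 0. A p that misses the threshold does not show that these genes did not respond.

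**Figure D3:**
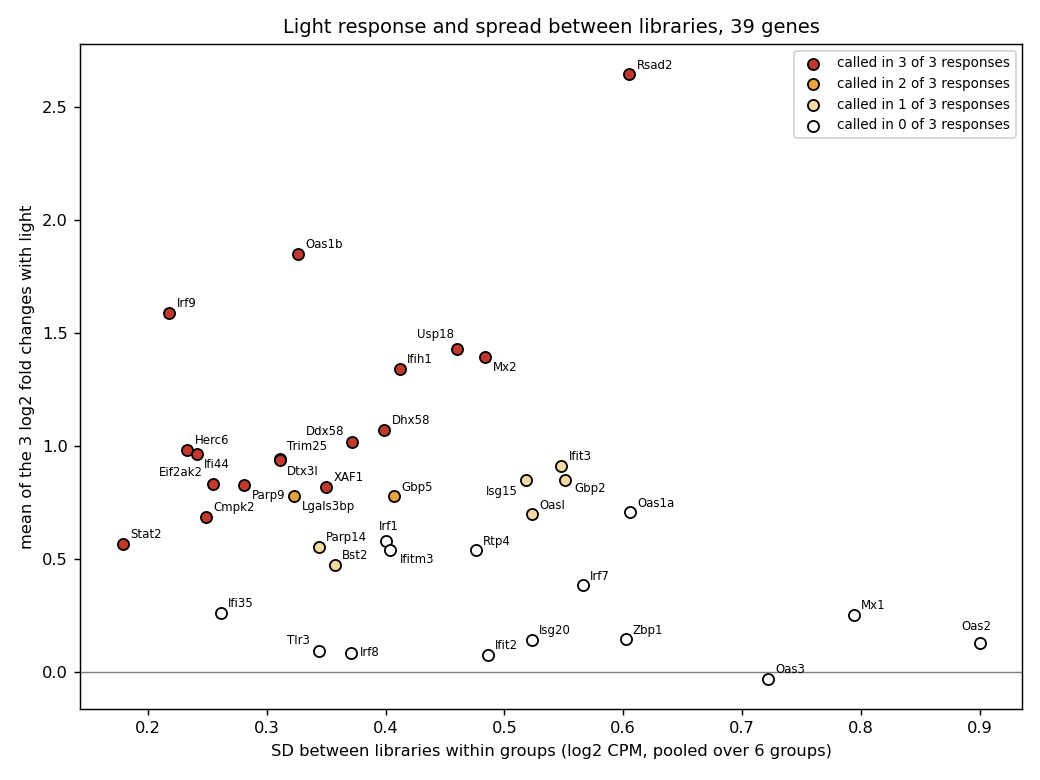
Mean of the 3 log2 fold changes with light (vertical axis) against the SD of log2 CPM between libraries within groups (horizontal axis) for each of the 39 genes, coloured by how many responses were called. Called genes lie to the upper left, Rsad2 stands high at an SD of 0.61, and the genes with the widest spread, Oas2 at 0.90 and Mx1 at 0.79, lie near 0.

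Within a group, single libraries were low or high across most of these genes. Control replicate 1 was the lowest of its group for 34 of the 39 genes and control replicate 6 the highest for 25, and the summed rod markers ran the other way, at 57500 CPM in the former and 30300 CPM in the latter. Nanoceria plus light replicate 2 was the lowest of its group for 28 genes, with rod markers at 19400 CPM, the second highest of that group. In nanoceria replicate 5 the rod markers were high, 57100 CPM, and 34 of the 39 genes lay above the group mean. The share of all genes for which these libraries ranked in the same way was not computed. These ranks are therefore not read as particular to the 39 genes. The part of these differences in the responses was not tested.

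Without light, no gene of the set was called after either injection. Vehicle against control called 0 of 39 by edgeR (0 at an unadjusted p under 0.05, 0 by DESeq2 and by limma-voom), where 0.0221% of all genes were called, and the median log2 fold change was -0.12. Nanoceria against control called 0 of 39 (3 at an unadjusted p under 0.05, 1 by DESeq2 and 1 by limma-voom), where 2.46% of all genes were called, with a median of 0.01. Nanoceria against vehicle called 0 of 39 (1 at an unadjusted p under 0.05, 0 by DESeq2 and 1 by limma-voom), where 0.0% of all genes were called. For Irf9 the nanoceria against control difference was 0.25, with a 95% interval from -0.04 to 0.54, and for Oas1b it was 0.09, from -0.33 to 0.52.

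The gene nearest to a call was Irf8, a factor that microglia and other myeloid cells need and that also answers to interferon gamma. It lay at 9.67, 14.3, 16.3, 19.8 and 25.4 CPM in control, at 17.4, 18.2, 20.8, 24.2 and 24.7 CPM in vehicle and at 20.4, 24.1, 36.8 and 39.1 CPM in nanoceria. The nanoceria libraries overlapped both other groups at their low end. Against control the log2 fold change was 0.82 ± 0.23 (edgeR adjusted p 0.0584), and Irf8 was the one gene called by other settings, with adjusted p between 0.00944 and 0.361 over 41 other settings, of 0.0131 by DESeq2 and 0.00944 by limma-voom, and of 0.0147 without control replicate 6, 0.029 without nanoceria replicate 5, 0.0405 and 0.0466 without light damage replicate 2 or 1 and 0.0489 without nanoceria plus light replicate 5. Beside it, 10 of 12 measured markers of microglia and macrophages rose in nanoceria against control, with a median log2 fold change of 1.03, and the summed level of that list was 184 to 259 CPM in control and 303 to 479 CPM in nanoceria. Markers of monocytes and granulocytes (64.5 to 133 CPM in control, 175 to 239 CPM in nanoceria), of dendritic cells (4.93 to 6.26 and 8.92 to 13.1 CPM) and of lymphocytes (13.9 to 22.5 and 23.9 to 42 CPM) were also higher there without overlap, with 2 of 5, 3 of 5 and 4 of 12 called, against 2.46% of all genes. Vehicle libraries summed to 227 to 369 CPM for microglia and macrophages and 111 to 177 CPM for monocytes and granulocytes. For dendritic cells they summed to 7.29 to 9.19 CPM and for lymphocytes to 17.0 to 31.2 CPM. Nanoceria thus overlapped vehicle on each list, and nanoceria against vehicle called 0.0% of all genes. The part of those cells in the level of Irf8 was not tested.

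Bst2 was at 11, 11.7, 14.1, 16.0 and 16.9 CPM in control and at 17.9, 19.8, 22.3 and 24.0 CPM in nanoceria. These groups did not overlap, as for 4.24% of all genes in that direction, and the change of 0.59 ± 0.23 was not called (edgeR adjusted p 0.203). Vehicle libraries held 13.5 to 19.9 CPM of Bst2 and overlapped those of nanoceria. Irf8 and Bst2 were chosen for this description after their values were seen.

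Among the exposed groups, no gene of the set was called between those given vehicle, nanoceria or nothing, and the intervals show what size of difference that leaves. Nanoceria plus light against vehicle plus light called 0 of 39 genes (0 at an unadjusted p under 0.05, 0 by DESeq2 and by limma-voom), where 0.0% of all genes were called, with a median log2 fold change of -0.01. The 95% interval of the difference lay within a 2-fold change either way for 36 of the 39, the exceptions being Gbp2, Mx1 and Oas2, and within 1.5-fold for 20. The interval ran from -0.20 to 0.35 for Irf9, from -0.45 to 0.34 for Oas1b, from -0.76 to 0.73 for Rsad2 and from -1.23 to 0.98 for Oas2, the widest. Vehicle plus light against light damage called 0 of 39 (0 at an unadjusted p under 0.05, 0 by either other tool, background 0.122%), with 36 intervals within 2-fold. Nanoceria plus light against light damage called 0 of 39 (0 at an unadjusted p under 0.05, 0 by either other tool, background 0.0608%), with 34 intervals within 2-fold.

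The test of whether the response to light itself differed called 0 of 39 genes in each of 3 contrasts by edgeR, DESeq2 and limma-voom. After vehicle against no injection 0 passed an unadjusted p under 0.05 (background 0.0442% of genes called), after nanoceria against no injection 2 did, Irf8 and Isg20 (0.409%), and after nanoceria against vehicle 0 did (0.0%). For Irf8 the response after nanoceria minus that without injection was -0.91 ± 0.31 (edgeR adjusted p 0.242), its 3 separate responses being 0.51 ± 0.21, 0.14 ± 0.22 and -0.40 ± 0.23. Intervals of these differences were wider, and 23, 21 and 21 of the 39 lay within 2-fold either way, so for the remaining genes the intervals do not exclude a difference of that size.

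**Figure D4:**
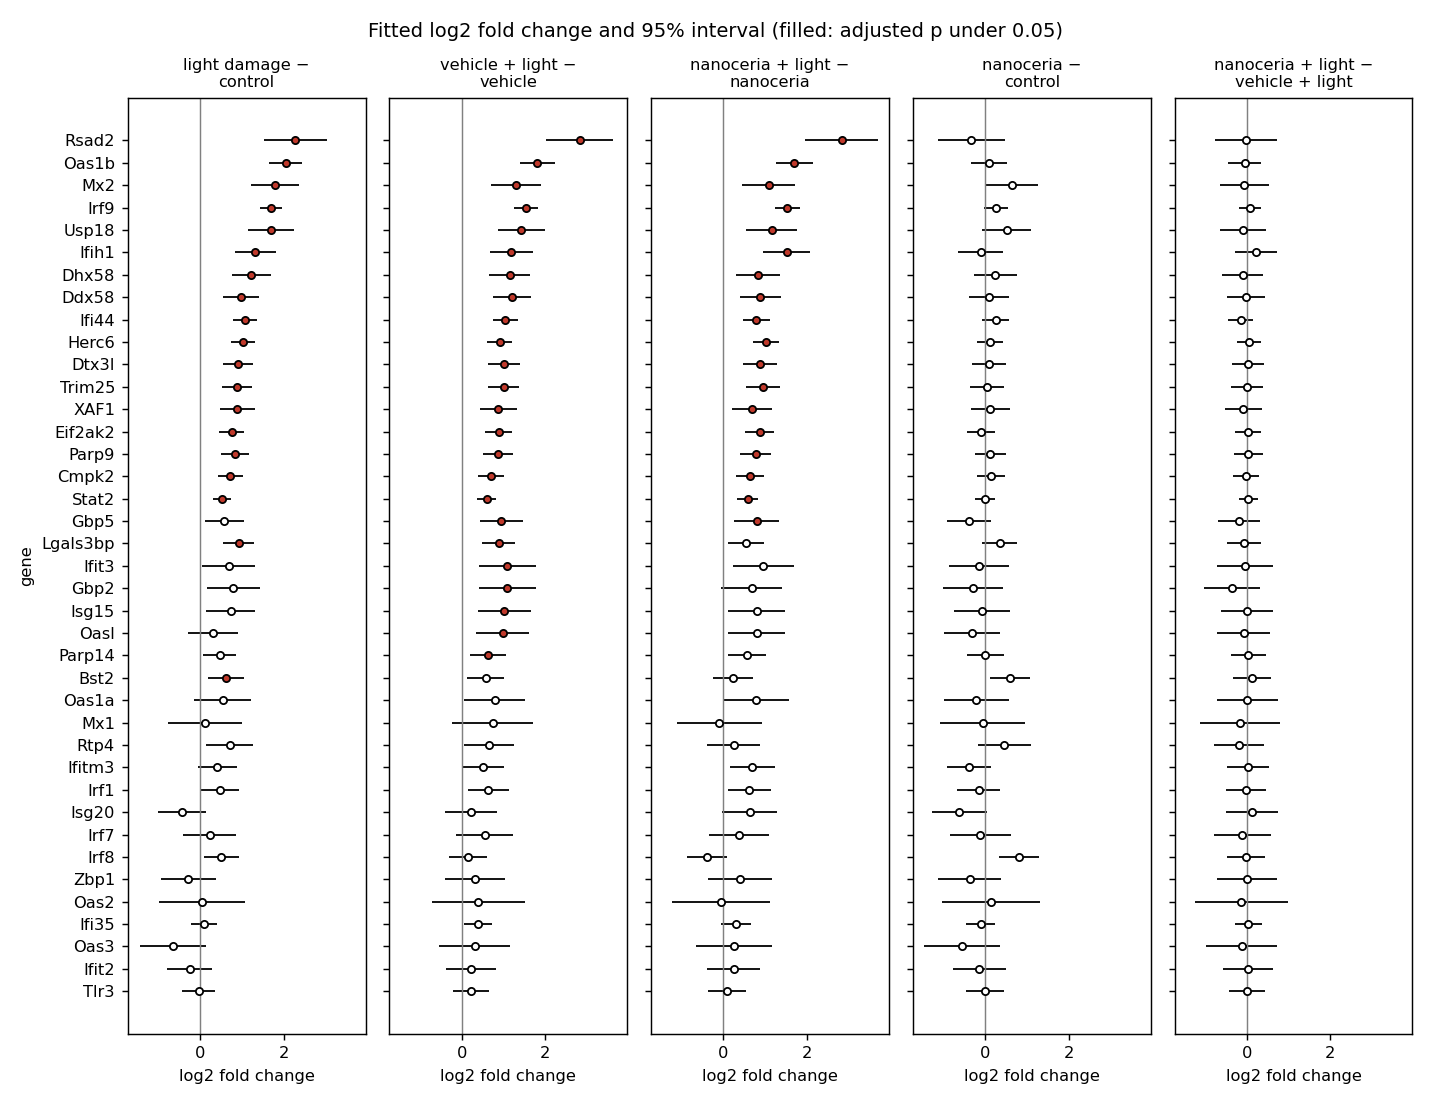
Fitted log2 fold change and 95% interval of each of the 39 genes in 5 comparisons, filled where the edgeR adjusted p was under 0.05. The 3 panels of light responses hold 19, 24 and 18 filled points, all above 0, and the panels of nanoceria against control and of nanoceria plus light against vehicle plus light hold none.

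The interferons themselves were barely seen. Of 12 ligand genes sought 11 were in the table, none passed the filter, and Ifna2 and Ifna16l1 had 0 counts in all 31 libraries, which allows up to 3 counts, or 0.119 CPM in the shallowest library and 0.0165 CPM in the deepest. Interferon beta, Ifnb1, had 5 counts over all libraries and interferon gamma, Ifng, 12. The most in any library was 12 counts, of Ifnk. The ligands were therefore not tested, and these counts do not show that they were absent.

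Of 6 receptor genes, 2 rose after light alone, 1 after vehicle and 0 after nanoceria, and the called genes were type I receptor chains. Over all genes 11.9%, 9.67% and 8.15% rose in the same order. The 16.7% of receptor genes called after vehicle lay near the 16.8% of all genes called in either direction there. Calls on a list this short are not read as particular to the type I receptor. Ifnar1 rose by 0.36 ± 0.06 and Ifnar2 by 0.73 ± 0.13 after light alone (edgeR adjusted p 4.28e-05 and 9.63e-05), and Ifnar2 also rose after vehicle (0.71 ± 0.14, edgeR adjusted p 0.000394). After nanoceria 0 of 6 rose by edgeR (2 at an unadjusted p under 0.05), with Ifnar2 at 0.41 ± 0.14 and an adjusted p of 0.0547, and Ifngr1, Ifngr2, Ifnlr1 and Il10rb were not called in any response. In the signalling list Stat3, better known from the interleukin-6 family, rose by 1.84 ± 0.13, 1.67 ± 0.13 and 1.54 ± 0.14 (edgeR adjusted p from 5.45e-11 to 2.44e-08). Jak2 rose in each response, Jak1 in 2 and Tyk2 in none, beside the same shares of all genes.

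Of 8 inhibitors of the pathway 5, 4 and 4 rose and 0 fell, where 11.9%, 9.67% and 8.15% of all genes rose. Socs3, which blocks cytokine receptors, rose by 4.49 ± 0.27, 4.08 ± 0.27 and 3.60 ± 0.28, more than any of the 39 genes, and Socs1, the main brake on Jak kinases of interferon receptors, by 1.03 ± 0.17, 0.80 ± 0.18 and 0.77 ± 0.19. Trex1, which degrades cytosolic DNA, rose by 0.71 ± 0.09, 0.63 ± 0.10 and 0.52 ± 0.11. Of 14 upstream sensors and kinases 2 rose and 1 fell after light alone, 3 and 1 after vehicle and 1 and 0 after nanoceria, and the 21.4% called after light alone lay near the 22.5% of all genes. Among them the adaptor Myd88 rose by 0.89 ± 0.16, 0.98 ± 0.17 and 0.98 ± 0.18, and the mitochondrial adaptor Mavs, which passes on the signal of Ifih1 and Ddx58, fell by 0.35 ± 0.06 after light alone and by 0.19 ± 0.06 after vehicle.

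Targets of interferon gamma and of antigen presentation gave 6 higher and 2 lower of 19 after light alone, 5 and 1 after vehicle and 4 and 1 after nanoceria. Over all genes 11.9% rose and 10.6% fell after light alone, 9.67% and 7.17% after vehicle and 8.15% and 5.78% after nanoceria, so the share of the list that fell after light alone was near that of all genes. The chemokine Cxcl10 was at 0.758 to 4.74 CPM in control and at 26.1 to 109 CPM in light damage, and it rose by 5.27 ± 0.56, 4.34 ± 0.54 and 3.70 ± 0.58 (edgeR adjusted p from 7.23e-08 to 4.52e-05). Cxcl11, which acts on the same receptor, rose by 4.55 ± 0.36, 2.07 ± 0.32 and 1.31 ± 0.34. It also rose without light, by 2.46 ± 0.37 in nanoceria against control (edgeR adjusted p 0.000623), from 0.0716 to 0.191 CPM in control to 0.507 to 1.09 CPM in nanoceria. These levels were low, and Cxcl11 was not called in nanoceria against vehicle, where 0.0% of all genes were called. Ciita, the switch of class II antigen presentation, changed the other way with light, by -0.97 ± 0.17, -1.29 ± 0.19 and -1.37 ± 0.20. Of 24 further genes known to be induced by interferon 10 rose and 1 fell, 10 rose and 0 fell, and 8 rose and 0 fell, beside the same shares of all genes, and Helz2, a transcriptional coactivator, and Pml, the core of nuclear bodies, were the best resolved, at 1.39 ± 0.22, 1.44 ± 0.23 and 0.99 ± 0.24 and at 0.74 ± 0.12, 0.68 ± 0.12 and 0.62 ± 0.13.

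Summed levels of several marker lists of other cells also differed with light. Over all genes, 11.9%, 9.67% and 8.15% rose and 10.6%, 7.17% and 5.78% fell in the 3 responses. Beside those shares, 1 called gene on a list this short is not read as a change of that list. Summed rod markers were at 30300 to 57500 CPM in control and at 10000 to 19100 CPM in light damage, and 8, 6 and 7 of the 9 were called lower in the 3 responses. Markers of monocytes and granulocytes summed to 64.5 to 133 CPM in control and 101 to 357 CPM in light damage, with 3 of 5 tested higher, and 2 of 5 rose after vehicle. In nanoceria plus light against nanoceria, 0 of these 5 markers rose by edgeR (0 at an unadjusted p under 0.05), and of 12 microglia and macrophage markers 0 rose and 4 fell. The microglia and macrophage list summed to 303 to 479 CPM in nanoceria and 209 to 410 CPM in nanoceria plus light. It summed to 184 to 259 CPM in control and 200 to 337 CPM in light damage. In vehicle it summed to 227 to 369 CPM and in vehicle plus light to 265 to 405 CPM. The exposed and unexposed groups thus overlapped on this list in each response. Dendritic cell markers summed to 4.93 to 6.26 CPM in control and 8.62 to 17.7 CPM in light damage, and 3 of 5 rose after light alone, 1 after vehicle and 1 after nanoceria. Of 12 lymphocyte markers 5 rose after light alone and 1 after vehicle, and 1 fell after nanoceria. Müller glia markers summed to 5110 to 6920 CPM in control and 3840 to 4550 CPM in light damage, and those of endothelium and pericytes to 441 to 582 CPM and 331 to 420 CPM, with 2 of 7 and 1 of 6 called lower. The part of these cell types, and of the lower rod markers, in the levels of the 39 genes was not tested.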

How the data were processed

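Poly(A) RNA of retina was sequenced as paired reads in 31 libraries of 6 groups, as the labels describe. Values in the deposited table are whole-number gene counts without normalisation. Per the submitters' processing notes the tools were Trimmomatic 0.39, STAR 2.7.9a, featureCounts of Subread 2.0.1, DESeq2 1.30.1 and R 4.0, with build rn6. Strand setting, annotation and treatment of multimapping reads were not given in the sources used here.

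The 39 genes and the pathway and marker lists were chosen with earlier results of these data known. Of 32623 genes, 9389 were at 0 throughout and 18094 passed filterByExpr (minimum count 10, minimum total 15). Comparisons used the quasi-likelihood test of edgeR 4.0.16 in R 4.3.3 (robust, TMM, 1 coefficient per group, 31 libraries in 1 fit), with Benjamini-Hochberg adjustment over all 18094 genes and a call at 0.05. An adjusted p without another tool named is from this test. Fold changes are log2 with SE, and intervals cover 95% without adjustment. Groups not overlapping means that the lowest library of one exceeded the highest of the other. The script was tested on simulated data.

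Members with values in every library were the 2 of each role with the smallest adjusted p over 9 pairwise comparisons. Mx1, Irf7, Irf8, Bst2, Isg15, Ifit3 and Oas1a were added after their values were seen, as were ranges of other genes. From the pathway lists, ligands, receptors, Cxcl10 and the 2 genes with the smallest adjusted p per list were named, and Jak1, Jak2, Tyk2, Socs1 and Ciita were added after their values were seen. A result of the signalling list is not reported here. Alternatives were DESeq2 1.42.0 size factors or library size in place of TMM, no filter, a fit of the compared groups alone, DESeq2's Wald test, limma-voom with quality weights (limma 3.58.1), a block for replicate number, a term for sex, summed near-identical pairs, and leaving out each library or replicate number 1. Fitted intervals include the spread between libraries, whereas the limit from a count of 0 covers counting error only.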

Additional observations from a re-analysis of the deposited data

Results flagged for a closer look

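For 20 genes with values given by library, each of the 6 groups was checked for a library that stood apart from the rest by Dixon's test at 95%. Of 120 such groups 5 held one, and chance flags about 1 in 20 groups if they are independent. They are not, since the genes share libraries. All flags but that of Rsad2 fell in the vehicle group, which holds the near-identical replicates 4 and 7. Rsad2 was at 385 CPM in vehicle plus light replicate 6, above the other 4 exposed vehicle libraries at 138 to 195 CPM. Usp18 was at 6.32 CPM in vehicle replicate 1, below the others of its group at 8.40 to 8.87 CPM. In vehicle replicate 3, Ifih1 was at 20.7 CPM where the others held 13.7 to 14.8 CPM, and Oasl was at 45.5 CPM where the others held 19.3 to 22.9 CPM. Bst2 was at 19.9 CPM in vehicle replicate 2, above 13.5 to 14.4 CPM in the others.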

How the results depend on the processing

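The counts of genes called with light, 19, 24 and 18, lay between 18 and 26, 20 and 25, and 14 and 24 when each of 31 libraries was left out (highest without control replicate 6 for the first, lowest without nanoceria replicate 1 and highest without nanoceria plus light replicate 2 for the last). They were 24, 25 and 19 by the Wald test of DESeq2, 21, 27 and 18 with library size alone, 19, 20 and 18 with near-identical pairs summed, and 29, 29 and 24 by limma-voom. With the replicate number as a block they were 19, 24 and 18, and a term for sex gave the same counts. Samples that share a number correlated over 0.1 in 23 of 60 pairs (from -0.35 to 0.38). Differently numbered samples were not compared, so these correlations cannot decide whether the numbers mark pairs. The main fit used no pairing. Of the 17 genes called in each response, 13 kept every call in 31 fits without 1 library and 10 other fits, and the calls of Mx2, Dhx58, XAF1 and Cmpk2 after nanoceria were lost in some. Over the calls of single genes, 2438 values kept their side of the threshold, 63 did not, and 0 turned sign.

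In nanoceria against control the count of 0 became 1, Irf8, with size factors of DESeq2 (adjusted p 0.0442), library size alone (0.0493), the Wald test of DESeq2 (0.0131) and limma-voom (0.00944), and between 0 and 1 without a library. In nanoceria against vehicle it became 1, again Irf8, by limma-voom (0.0181). The cause of these shifts was not tested. Totals of 25158407 counts and above gave each member at least 24 counts in every library, the fewest for Oas2 in light damage replicate 1, where counting error is a larger part of the value. The ligands were too sparse to test.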
